A study of Mus musculus with 20 samples.

Results

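Voltage-gated and potassium channel genes encode the proteins that set the membrane potential of a cell and, in the heart, shape the action potential. The genes described here were chosen by name alone: the *Kcn* families, the *Scn* genes of voltage-gated sodium channels, the *Cacna1*, *Cacna2d* and *Cacnb* genes of voltage-gated calcium channels and the *Hcn* genes of pacemaker channels. Of 115 such protein-coding genes annotated in the mouse, 62 were present in at least 1 of 3 deposited tables, which together hold 15015 genes, and 53 were in none. The endothelial cell (EC) table holds 46 of them among 13929 genes, the fibroblast (FB) table has 38 among 13563, and the cardiomyocyte (CM) table has 43 among 13038. All 3 tables share 28. The samples are bulk polyA RNA libraries of primary cells from hearts of *Gadlor*-KO and WT mice, all 2 weeks after transverse aortic constriction (TAC), a ligature that loads the heart with pressure. They comprise 4 *Gadlor*-KO and 4 WT samples of ECs, 3 and 3 of FBs, and 3 and 3 of CMs. *Gadlor*-KO mice carry a systemic, homozygous CRISPR-Cas9 deletion on chromosome 16 that removes the long non-coding RNAs *Gadlor1* and *Gadlor2* and that goes back to 1 embryonic stem cell clone, and TAC was done at 8 to 10 weeks of age. ECs were collected with CD146 beads, FBs from the flowthrough with feeder removal beads, and CMs by Langendorff perfusion. Sham-operated mice are not part of these samples, so every value is from a pressure-loaded heart. The study followed arrhythmia and calcium cycling in these mice, and the question asked of the channel genes is how their RNA differed between genotypes in each cell type.

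Sodium channels carry the fast upstroke of the ventricular action potential, L-type calcium channels its plateau and the calcium signal that starts contraction, and several potassium channels its repolarization. Inward rectifiers hold the resting potential, two-pore-domain channels pass a background potassium current, and HCN channels carry the pacemaker current. ECs and FBs do not fire action potentials, but their potassium channels set a resting potential, and calcium-activated potassium channels of ECs take part in the relaxation of vessels.

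Before the results, some facts of the libraries bear on the values. The effective library size was 40.1 to 55.4 M (mega) reads in ECs, 15.04 to 59.8 M in FBs and 10.6 to 20.2 M in CMs. The labelled cell type matched its markers in ECs and FBs, whereas in CMs all 15 measured cardiomyocyte markers fell in *Gadlor*-KO samples, with a summed level of 9.84 to 13.08 log2 CPM (counts per 1 M reads) in *Gadlor*-KO and 15.27 to 16.01 log2 CPM in WT CMs. In *Gadlor*-KO 1 this sum, 10.42, lay below that of fibroblast (11.06) and erythroid markers (13.93). In *Gadlor*-KO 2 it was 9.84, below fibroblast (11.81) and endothelial markers (11.56). Only in *Gadlor*-KO 3 did it lead, at 13.08 against 11.41 and 11.23 for fibroblast and endothelial markers. CM is thus the label of these samples, which the marker sums of *Gadlor*-KO 1 and 2 do not bear out. The share of mitochondrially encoded RNA was 65.1% to 75.6% in *Gadlor*-KO CMs and 26.7% to 46.8% in WT CMs. In FBs, sample WT-260 stood apart from the other WT samples. Mitochondrial RNA took 46.3% to 60.9% in *Gadlor*-KO FBs, against 73.6% in WT-260 and 3.81% and 5.7% in the other two, and WT-260 had 9.52 log2 CPM of summed cardiomyocyte markers, against 4.74 and 5.87 log2 CPM in the other two WT samples. Among WT CMs, sample WT 6 deviated from WT 1 and WT 2 along the GC content of the transcripts, as described further on. In bulk samples, fewer cells of a type and less RNA per cell cannot be told apart. The methods speak of biological replicates for the experiments in general, and no source ties each sequenced sample to a mouse, so every p-value rests on the spread among the sequenced samples.

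Set in order per kilobase of transcript, the leading channel genes differed between cell types. The tables were normalized separately, so these levels stand side by side without a test between cell types. In ECs, *Kcna5*, the voltage-gated potassium channel Kv1.5, had by far the highest level, at 6.47 log2 CPM per kilobase in *Gadlor*-KO and 5.55 in WT. In FBs, *Kcna5* had 3.59 log2 CPM per kilobase in *Gadlor*-KO and 0.13 in WT. *Cacnb3*, a calcium channel beta subunit, had 2.66 in *Gadlor*-KO and 3.16 in WT FBs, and *Scn7a*, the atypical sodium channel Nax, had 2.53 in *Gadlor*-KO and 3.06 in WT FBs. In WT CMs the highest levels were those of *Kcnk3* (the two-pore-domain channel TASK-1) at 5.73 and *Cacna2d3* (a calcium channel alpha2delta subunit) at 5.37 log2 CPM per kilobase. Next came *Kcng2* (a silent Kv subunit) at 4.997 and *Kcnj11* (Kir6.2, the pore of the ATP-sensitive channel) at 4.98 log2 CPM per kilobase. Of 10 channel classes, the member with the highest level per kilobase was the same gene in both genotypes in 10 classes in ECs and 9 in FBs, but in 5 in CMs. Among the classes where it differed in CMs, *Gadlor*-KO and WT were led by *Cacnb3* against *Cacna2d3* among calcium channel auxiliary subunits, *Kcna5* against *Kcng2* among Kv subunits, *Kcnt2* against *Kcnn1* among calcium- and sodium-activated channels, and *Cacna1g* against *Cacna1c* among calcium channel alpha1 subunits. The last of these rests on 0.12 for *Cacna1g* against 0.00 for *Cacna1c* in *Gadlor*-KO CMs, which is a small gap beside their SDs of 1.19 and 2.06.

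Presence in the tables also followed cell type, and the tables lack transcripts of low level, by a criterion that no source gives. The CM table alone holds 13 of the genes, among them *Hcn4*, *Kcnd2*, *Kcnd3*, *Kcne1*, *Kcnj3*, *Kcnj5*, *Kcnj12* and *Kcnn2*. The EC table alone holds 10, among them *Kcnc4*, *Kcnk7*, *Kcne3* and *Cacna1b*, and the FB table alone holds *Kcnk13* and *Scn2a*. *Kcna4*, which carries a transient outward current in the mouse ventricle, was in no table. Whether an absent gene is silent or below the filter was not tested.

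In CMs, most of the measured channel genes had less RNA in *Gadlor*-KO than in WT samples. A gene counted as called at a Benjamini-Hochberg adjusted p under 0.05 over all genes of the table in limma's moderated test, with a fold change above 1.5. By this rule 24 of the 43 measured channel genes fell, where 19.6% of all genes of the table were called lower, and 6 rose, where 21.3% of all genes were called higher. The median log2 fold change of the 43 genes was -2.47, against 0.15 over all genes of the table. The values of the 3 *Gadlor*-KO and the 3 WT samples did not overlap for 28 genes lower in *Gadlor*-KO (28.4% of all genes) and 7 genes higher (31.1% of all genes). Falls were thus more frequent among channel genes than among all genes, and rises less frequent, as a count without a test.

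**Figure D1:**
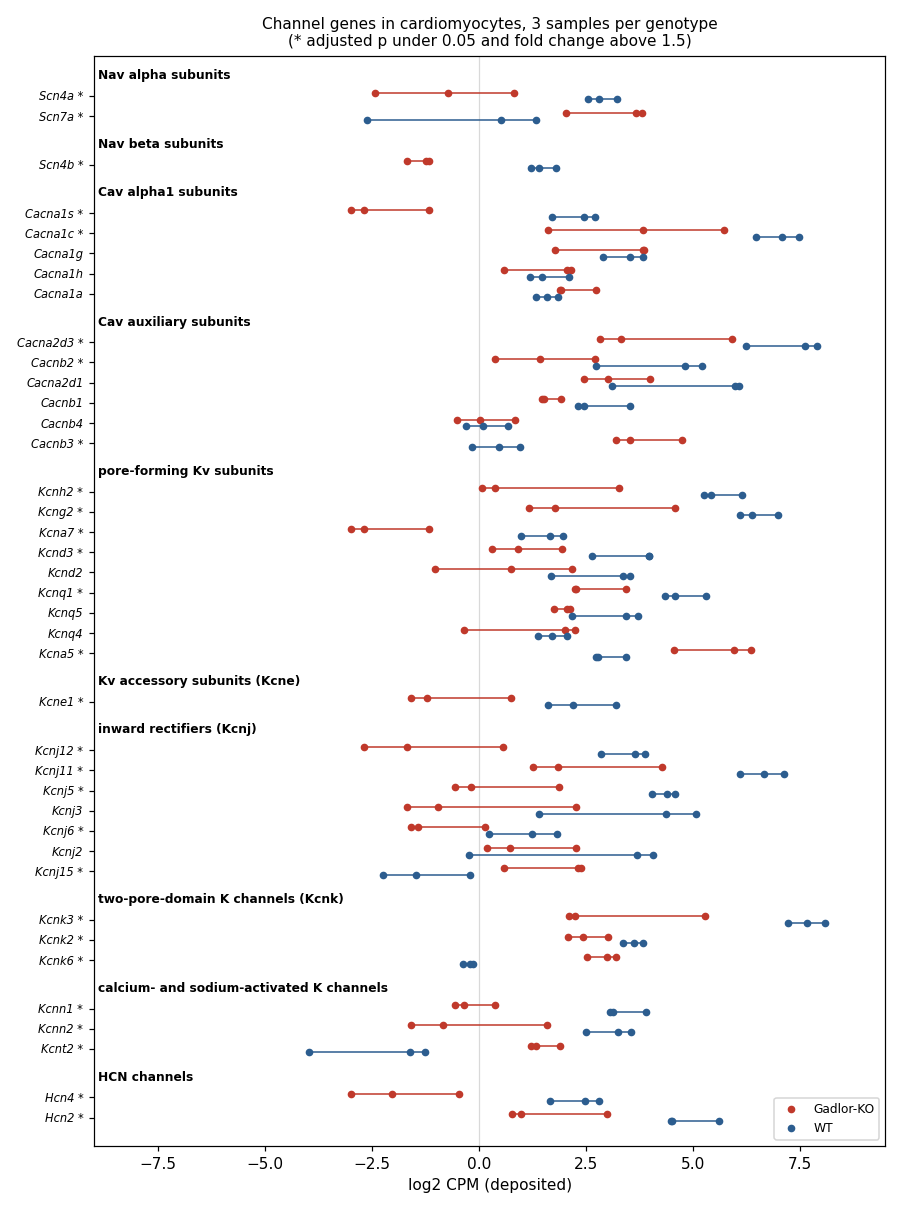
Log2 CPM of 39 of the 43 channel genes in each CM sample, grouped by channel class. Red points and lines (upper) are the 3 *Gadlor*-KO samples and blue ones (lower) the 3 WT samples, lines span the lowest to the highest value, and a star marks a called gene. The genes called lower lie left in *Gadlor*-KO, and the 6 called higher lie right.

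Sodium channel genes were called in both directions. *Scn4a*, the skeletal muscle sodium channel Nav1.4, had -0.73, -2.42 and 0.82 log2 CPM in *Gadlor*-KO against 3.24, 2.79 and 2.54 in WT CMs (log2 fold change -3.63 ± 0.81, limma adjusted p = 0.0134). Of the beta subunits, which modify the gating and membrane insertion of sodium channels, *Scn4b* fell by 2.84 ± 0.43 on the log2 scale (adjusted p = 0.00595, limma), with -1.70 to -1.18 log2 CPM in *Gadlor*-KO and 1.22 to 1.80 in WT. In *Gadlor*-KO libraries of 10.6 to 16.3 M, such low levels stand for few reads. The closeness of the *Gadlor*-KO values therefore says little of their spread.

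Calcium channel genes split by subunit. *Cacna1c*, the L-type channel Cav1.2 that couples excitation to contraction, had 1.60, 3.82 and 5.71 log2 CPM in *Gadlor*-KO CMs against 7.47, 7.07 and 6.48 in WT CMs. No *Gadlor*-KO value reached a WT value, and the *Gadlor*-KO samples spread over more than the WT samples did. Its log2 fold change was -3.29 ± 0.97 (adjusted p = 0.0344, limma). *Cacna1s*, the L-type channel of skeletal muscle, had -2.70, -2.9996 and -1.18 in *Gadlor*-KO against 2.72, 1.69 and 2.45 log2 CPM in WT CMs, a log2 fold change of -4.58 ± 0.62 (adjusted p = 0.00549, limma). An antisense gene covers 19.2% of its transcript, and since no source says whether strand was used in counting, its reads are uncertain. The T-type channel genes did not pass the test. *Cacna1g* had 3.14 ± 1.19 log2 CPM in *Gadlor*-KO and 3.42 ± 0.48 in WT, and *Cacna1h* 1.60 ± 0.87 and 1.59 ± 0.46 (SD, n = 3 each). *Cacna1a*, a P/Q-type channel known from neurons, had 2.73, 1.90 and 1.91 log2 CPM in *Gadlor*-KO against 1.34, 1.85 and 1.58 in WT CMs, apart but not called (adjusted p = 0.268, limma).

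Among the auxiliary subunits, which bring calcium channels to the membrane, *Cacnb2*, the main beta subunit of the heart, fell and *Cacnb3* rose. *Cacnb2* had 1.42, 0.37 and 2.70 log2 CPM in *Gadlor*-KO CMs against 5.20, 4.81 and 2.73 in WT CMs (log2 fold change -2.75 ± 0.83, limma adjusted p = 0.0366). The groups met almost at *Gadlor*-KO 3 and WT 6. *Cacnb3* had 4.75, 3.52 and 3.19 in *Gadlor*-KO against -0.17, 0.47 and 0.96 log2 CPM in WT CMs, a log2 fold change of 3.40 ± 0.53 (adjusted p = 0.00614, limma). The alpha2delta gene *Cacna2d3* fell by 3.23 ± 0.88 on the log2 scale (adjusted p = 0.0258, limma). *Cacna2d1* had 2.45, 3.01 and 3.99 log2 CPM in *Gadlor*-KO and 6.07, 5.97 and 3.11 in WT CMs and was not called (adjusted p = 0.121, limma). Here it was WT 6 that lay among the *Gadlor*-KO values.

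Of the 11 Kv subunits in the CM table, 6 fell and 1 rose. *Kcnh2*, which encodes the ERG channel of the rapid delayed rectifier, had 0.08, 0.37 and 3.27 log2 CPM in *Gadlor*-KO CMs against 5.43, 5.25 and 6.15 in WT CMs, and its log2 fold change was -4.37 ± 0.85 (adjusted p = 0.00903, limma). *Kcnq1*, the pore of the slow delayed rectifier, had 2.25, 2.28 and 3.44 against 4.57, 4.36 and 5.30, a log2 fold change of -2.09 ± 0.44 (adjusted p = 0.0109, limma). Its partner *Kcne1* had -1.58, -1.21 and 0.74 in *Gadlor*-KO against 2.20, 1.62 and 3.21 log2 CPM in WT CMs (log2 fold change -3.03 ± 0.74, limma adjusted p = 0.0183). In all 3 genes of the delayed rectifiers *Gadlor*-KO 3 held the highest *Gadlor*-KO value and lay below every WT sample. *Kcnd2* and *Kcnd3* encode channels of the transient outward type. *Kcnd3* fell by 2.47 ± 0.58 on the log2 scale (adjusted p = 0.0153, limma), whereas *Kcnd2* had 0.75, -1.02 and 2.17 log2 CPM in *Gadlor*-KO against 3.53, 3.35 and 1.67 in WT CMs and was not called (adjusted p = 0.0918, limma). Among the others that fell were *Kcng2* (-3.98 ± 0.87 on the log2 scale) and *Kcna7* (-3.83 ± 0.63).

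*Kcna5* was the Kv subunit that rose. It had 4.57, 6.36 and 5.95 log2 CPM in *Gadlor*-KO CMs against 2.73, 2.77 and 3.44 in WT CMs. The lowest *Gadlor*-KO sample exceeded the highest WT sample by more than 1 on the log2 scale. The log2 fold change was 2.65 ± 0.51, or 6.26-fold, with an adjusted p of 0.00896 in limma. The gene lies on chromosome 6 from 126532551 to 126535412 on the minus strand (mm10, GENCODE vM21) and has 1 transcript in the tables.

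The inward rectifiers that set the resting potential fell, with exceptions that turn on WT 6. *Kcnj12* (Kir2.2) had -2.70, -1.70 and 0.57 log2 CPM in *Gadlor*-KO CMs against 3.64, 2.86 and 3.88 in WT CMs, a log2 fold change of -4.73 ± 0.85 (adjusted p = 0.00766, limma). *Kcnj2* (Kir2.1) had 0.20, 0.73 and 2.26 in *Gadlor*-KO against 4.07, 3.68 and -0.22 log2 CPM in WT CMs and was not called (log2 fold change -1.45 ± 1.20, limma adjusted p = 0.377). WT 6 was thus the lowest of all 6 samples for *Kcnj2*, and WT 1 and WT 2 the highest. *Kcnj3* and *Kcnj5* together form the acetylcholine-activated channel of the atrium and the sinoatrial node. *Kcnj5* had -0.19, -0.56 and 1.87 log2 CPM in *Gadlor*-KO against 4.57, 4.05 and 4.39 in WT CMs (log2 fold change -3.97 ± 0.66, limma adjusted p = 0.00683). *Kcnj3* had -0.96, -1.70 and 2.26 against 5.07, 4.36 and 1.40 and just missed the threshold (log2 fold change -3.74 ± 1.31, limma adjusted p = 0.0596). An antisense gene covers 31.1% of its transcript. *Kcnj11*, the metabolic sensor with the sulfonylurea receptors, had 1.84, 1.26 and 4.28 log2 CPM in *Gadlor*-KO against 6.65, 6.11 and 7.12 in WT CMs, a log2 fold change of -4.17 ± 0.78 (adjusted p = 0.00844, limma). *Kcnj6* fell by 2.06 ± 0.67 on the log2 scale (adjusted p = 0.0455, limma). *Kcnj15* went the other way and rose by 3.07 ± 0.74 (adjusted p = 0.0165, limma), with 0.59, 2.31 and 2.37 log2 CPM in *Gadlor*-KO and -1.48, -0.22 and -2.24 in WT CMs.

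Background and calcium-activated potassium channels also held both directions. *Kcnk3* had 2.11, 2.24 and 5.29 log2 CPM in *Gadlor*-KO CMs against 7.66, 7.22 and 8.10 in WT CMs (log2 fold change -4.45 ± 0.86, limma adjusted p = 0.00904). *Kcnk2*, the stretch-sensitive channel TREK-1, had 2.07, 3.01 and 2.42 against 3.84, 3.62 and 3.37, the smallest of the 24 falls (log2 fold change -1.11 ± 0.35, limma adjusted p = 0.0397). *Kcnk6* had 3.20, 2.99 and 2.52 in *Gadlor*-KO against -0.38, -0.22 and -0.14 log2 CPM in WT CMs, a rise of 3.15 ± 0.37 on the log2 scale (adjusted p = 0.00485, limma) with little spread in either genotype. Of the small-conductance calcium-activated channels, *Kcnn1* fell by 3.54 ± 0.44 (adjusted p = 0.00497, limma) and *Kcnn2* by 3.38 ± 0.84 (adjusted p = 0.0189, limma). The sodium-activated channel gene *Kcnt2* had 1.21, 1.90 and 1.34 log2 CPM in *Gadlor*-KO against -1.26, -1.61 and -3.97 in WT CMs, where -3.97 is the lowest value of the table. Its fitted log2 fold change of 3.76 ± 0.78 (adjusted p = 0.0106, limma) therefore depends on the prior count behind the deposited values. The same limit holds for the falls of *Cacna1s*, *Hcn4*, *Kcna7* and *Kcnj12*, whose *Gadlor*-KO values also lay close to the lowest value. *Cacna1s*, *Hcn4* and *Kcna7* all had -2.9996 log2 CPM in *Gadlor*-KO 2, and *Cacna1s*, *Kcna7* and *Kcnj12* all had -2.70 in *Gadlor*-KO 1. *Scn7a* rose by 3.44 ± 1.07 on the log2 scale (adjusted p = 0.0408, limma), with 2.04, 3.81 and 3.67 in *Gadlor*-KO and 0.50, 1.32 and -2.62 log2 CPM in WT CMs.

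Both pacemaker channel genes of the CM table fell. *Hcn4*, the main pacemaker channel of the sinoatrial node, had -2.03, -2.9996 and -0.46 log2 CPM in *Gadlor*-KO CMs against 2.47, 1.65 and 2.81 in WT CMs (log2 fold change -4.14 ± 0.73, limma adjusted p = 0.00724). *Hcn2* had 0.97, 0.78 and 2.99 against 4.48, 4.50 and 5.61 (log2 fold change -3.28 ± 0.66, limma adjusted p = 0.00999). Neither gene overlapped between the genotypes.

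The falls were set beside the cardiomyocyte markers of each sample. *Gadlor*-KO 3 held the highest *Gadlor*-KO value in 23 of the 24 genes that fell, and in 34 of all 43 channel genes. It also had the highest summed cardiomyocyte markers among *Gadlor*-KO CMs, 13.08 log2 CPM against 10.42 in *Gadlor*-KO 1 and 9.84 in *Gadlor*-KO 2. *Gadlor*-KO 1 thus had more marker RNA than *Gadlor*-KO 2, but its sum of the 24 channel genes, given below, was lower. The 15 measured markers, with *Myl7* not in the table, had a median log2 fold change of -4.35 and ranged from -5.05 for *Myh6*, the alpha myosin heavy chain, to -3.72 for *Pln*, phospholamban. The median of the 24 channel genes was -3.46, and 5 of them, *Cacna1s*, *Kcnh2*, *Kcnj12* and *Kcnk3* included, lay below the marker median. The summed CPM of the 24 genes was 5.54, 5.88 and 8.19 on the log2 scale in *Gadlor*-KO CMs and 10.31, 10.02 and 10.39 in WT CMs. Less the summed markers of the same sample, this became -4.88, -3.96 and -4.89 in *Gadlor*-KO and -5.23, -5.25 and -5.62 in WT CMs. Set against the markers in this way, 15 of the 24 genes overlapped between genotypes, 9 were higher in every *Gadlor*-KO sample and 0 were lower in every *Gadlor*-KO sample. This comparison was chosen after the values had been seen and carries no test.

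**Figure D2:**
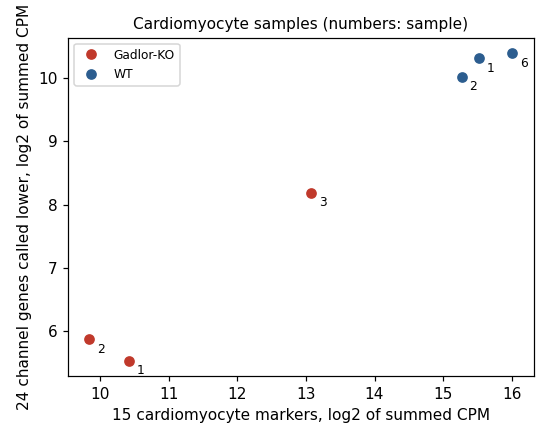
Log2 of the summed CPM of the 24 channel genes called lower (vertical) against that of 15 cardiomyocyte markers (horizontal) in each CM sample. Red points are *Gadlor*-KO 1, 2 and 3, blue points WT 1, 2 and 6. *Gadlor*-KO 3 lies between the other *Gadlor*-KO samples and WT on both axes.

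Markers of other cells moved the other way in the same samples. All 14 endothelial markers were called higher in *Gadlor*-KO CMs, with a summed level of 10.31 to 11.56 log2 CPM in *Gadlor*-KO and 8.27 to 9.15 in WT, as were 9 of 11 fibroblast markers, with 11.06 to 11.81 in *Gadlor*-KO and 7.06 to 7.68 in WT. Of 12 macrophage markers 11 were called higher and 1 lower, with 8.80 to 10.24 log2 CPM in *Gadlor*-KO and 8.07 to 9.16 in WT. Called higher too were 4 of 13 pericyte and smooth muscle markers and 4 of 8 epicardial markers. Of 3 Schwann cell and neuron markers 2 were called higher and 1 lower. Of 5 erythroid markers 0 were called, at a median log2 fold change of 7.125 and a wide spread. Their summed level was 13.93, 5.68 and 6.68 log2 CPM in *Gadlor*-KO 1, 2 and 3. In WT 1, 2 and 6 it was -1.01, 1.01 and 6.055 log2 CPM. The 6 channel genes that rose in CMs are all genes of the EC and FB tables, and all 6 were higher in WT ECs, and 5 in WT FBs, than in WT CMs, with median differences of 3.81 and 4.86 on the log2 scale across separately normalized tables. Of the 24 genes that fell, 12 are in the EC table, and 0 of these 12 were higher there in WT, and 12 are in the FB table, of which 1 was higher there. Of the 13 genes not called, 11 are in each of these tables, with 6 higher in WT ECs and 5 in WT FBs. The genes that rose had a median of -0.26 log2 CPM in WT CMs, so this contrast is not independent of how they were called. The part of RNA from other cells in the channel gene differences was not tested.

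WT 6 differed from the other two WT CM samples in a way that followed base composition. Across the 43 genes, its log2 CPM less the mean of WT 1 and WT 2 ranged from -4.10 for *Kcnj2* to 1.36, with a Pearson r of 0.865 and a Spearman rho of 0.802 with the GC content of the transcript. These points share 3 libraries and are not independent, so no p is given. It was lower by more than 1 in 11 genes of a median GC content of 44.4%, among them *Kcnj2*, *Scn7a*, *Kcnj3*, *Cacna2d1*, *Kcnt2* and *Cacnb2*, and not so in 32 genes of a median of 57.2%. Transcript length had a weaker relation to it (r = -0.31). The difference between genotypes had an r of -0.355 with GC content with all samples and -0.198 against WT 1 and WT 2 alone. Without WT 6, 23 of the 24 falls and all 6 rises remained called, *Kcnj6* being the exception. Of the calls in CMs, those of *Cacna1c*, *Cacna2d3*, *Cacnb2*, *Kcnd3*, *Kcne1*, *Kcng2*, *Kcnj6*, *Kcnk2*, *Kcnn2*, *Kcnj15* and *Scn7a* were lost when at least 1 of the samples was left out, with the sign kept, and the other 19 were kept whichever sample was left out.

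**Figure D3:**
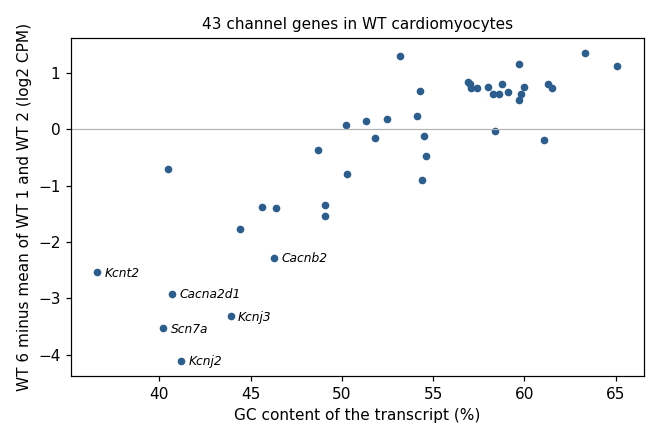
Log2 CPM of sample WT 6 less the mean of WT 1 and WT 2 (vertical) against the GC content of the transcript in percent (horizontal), 1 point for each of the 43 channel genes in WT CMs. Genes lower by more than 2 are named. The genes lowest in WT 6, from *Kcnj2* down by 4.10, lie at low GC content.

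Promoters of a few genes that moved in CMs are shown for their sequence context, 2 of genes that fell and 3 of genes that rose. RefSeq gives a promoter for 42 of the 62 genes, 38 of them within 500 bases of the start of the transcript used here. They run from 250 bases before to 50 bases after a start (GRCm38.p6, minus-strand genes shown on their own strand). *Kcnj5* (chr9:32344295-32344594, minus strand) and *Hcn2* (chr10:79716384-79716683, plus strand) fell, and *Kcna5* (chr6:126535506-126535805, minus strand), *Scn7a* (chr2:66784861-66785160, minus strand) and *Kcnj15* (chr16:95257308-95257607, plus strand) rose. Capitals mark GGGCGG (the GC box), CANNTG (the E-box) and AGATAA (the GATA motif) on either strand, and no 2 of these motifs overlap in the 5 sequences.
*Kcnj5*: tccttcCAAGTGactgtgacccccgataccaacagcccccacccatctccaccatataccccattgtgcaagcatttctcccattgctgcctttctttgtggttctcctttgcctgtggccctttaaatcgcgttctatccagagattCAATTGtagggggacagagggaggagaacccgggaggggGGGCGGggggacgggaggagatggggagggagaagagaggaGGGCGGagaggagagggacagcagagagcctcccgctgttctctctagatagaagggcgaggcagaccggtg
*Hcn2*: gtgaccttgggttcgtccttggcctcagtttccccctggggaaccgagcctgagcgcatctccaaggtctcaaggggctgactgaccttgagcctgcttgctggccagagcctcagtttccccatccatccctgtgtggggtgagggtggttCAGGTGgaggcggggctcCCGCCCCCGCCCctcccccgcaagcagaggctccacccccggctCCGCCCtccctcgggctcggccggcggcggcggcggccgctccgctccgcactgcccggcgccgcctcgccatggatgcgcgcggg
*Kcna5*: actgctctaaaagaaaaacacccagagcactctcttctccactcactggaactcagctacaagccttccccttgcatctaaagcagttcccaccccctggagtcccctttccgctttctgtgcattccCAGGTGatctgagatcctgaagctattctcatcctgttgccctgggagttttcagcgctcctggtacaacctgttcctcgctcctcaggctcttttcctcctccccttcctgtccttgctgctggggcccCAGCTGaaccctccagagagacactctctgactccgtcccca
*Scn7a*: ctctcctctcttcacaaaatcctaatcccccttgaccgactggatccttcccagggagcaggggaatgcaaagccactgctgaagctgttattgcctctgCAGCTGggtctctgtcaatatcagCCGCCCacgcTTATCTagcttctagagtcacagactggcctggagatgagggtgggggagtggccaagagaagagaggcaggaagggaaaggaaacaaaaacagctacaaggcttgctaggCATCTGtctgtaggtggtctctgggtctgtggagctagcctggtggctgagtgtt
*Kcnj15*: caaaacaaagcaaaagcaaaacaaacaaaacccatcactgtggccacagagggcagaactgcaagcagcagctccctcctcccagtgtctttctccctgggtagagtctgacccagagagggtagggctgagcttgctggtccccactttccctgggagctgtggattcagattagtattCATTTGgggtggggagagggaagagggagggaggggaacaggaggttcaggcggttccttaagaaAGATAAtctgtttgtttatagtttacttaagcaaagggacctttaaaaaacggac

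The promoter of *Hcn2* holds 26 CpG and 3 GC boxes and that of *Kcnj5* 10 CpG and 2 GC boxes, whereas those of *Kcna5*, *Scn7a* and *Kcnj15* hold 4, 3 and 2 CpG. Over the 14 fallen genes with a promoter, the median was 20.5 CpG and the GC content 63.5%, over 5 risen genes 4.0 CpG and 55.0%, and over all 32851 RefSeq promoters 7.0 CpG and 52.7%. The GC box was found in 7 of 14 fallen and 2 of 5 risen genes and in 35.7% of all promoters. The E-box was found in 10 of 14 and 5 of 5 and in 72.3% of all, and the GATA motif in 0 of 14 and 2 of 5 and in 11.2% of all. A match describes letters in this window and says nothing of the binding of a factor.

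Partner genes of the channels, taken from lists chosen with earlier results of these data known, were called in both directions in CMs. Over all genes of the CM table, 21.3% were called higher and 19.6% lower. Of 9 measured partner subunits 4 rose and 3 fell, with a median log2 fold change of -0.09 against 0.15 over all genes. The falls were *Kcnip2*, the subunit that couples to *Kcnd* channels (2.83 ± 1.45 log2 CPM in *Gadlor*-KO, 6.86 ± 0.49 in WT, SD, n = 3 each), *Abcc8*, a sulfonylurea receptor that pairs with *Kcnj11* (log2 fold change -4.65 ± 0.92), and *Fgf13*, a modulator of sodium channels (1.81 ± 1.22 and 4.47 ± 0.32). The rises included *Kcnip3* (1.89 ± 0.12 in *Gadlor*-KO, -0.88 ± 0.21 in WT) and *Kcnab2*, a Kv beta subunit (1.71 ± 1.11 and -2.38 ± 0.58), followed by *Cacng7* and *Fgf11*. Of 24 scaffolds and regulators 9 fell and 3 rose (median -1.04). *Rrad*, a small G protein that restrains L-type channels, fell by 4.28 ± 0.71 on the log2 scale (adjusted p = 0.00679, limma), *Rangrf*, which helps sodium channels to the membrane, by 3.20 ± 0.55 (adjusted p = 0.00687, limma) and *Jph2*, which ties the T-tubule to the sarcoplasmic reticulum, by 3.51 ± 0.62 (adjusted p = 0.00737, limma). The 3 rises were *Bin1*, which shapes T-tubules (2.88 ± 0.32), *Sntb2*, a syntrophin (3.67 ± 0.74), and *Gem*, a relative of *Rrad* (3.20 ± 0.85).

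Transcription factors that act on channel genes fell in 7 and rose in 4 of 18 cases (median -0.50), beside 19.6% and 21.3% of all genes. *Irx5*, *Irx4* and *Irx3*, Iroquois factors that grade potassium channel expression across the ventricular wall, fell by 3.35 ± 0.54, 3.76 ± 0.72 and 2.29 ± 0.46 on the log2 scale, and *Nkx2-5*, *Gata4*, *Hand2* and *Tbx5* fell as well. *Tbx3*, which represses working-myocardium genes in the conduction system, *Tbx18*, *Foxo1* and *Etv1* rose, *Foxo1* by 1.42 ± 0.34 (adjusted p = 0.0151, limma). Of 28 other cation and chloride channels 15 rose and 0 fell, where 21.3% of all genes were called higher and 19.6% lower, and the median was 1.98. The 13 not called included *Ano10* (-0.67), *Trpm4* (-0.35) and *Clcn7* (-0.20), in log2 fold change. Among the 15 rises were *Ano6* (2.81 ± 0.30), a calcium-activated scramblase, *Orai2* (4.17 ± 0.46), a store-operated calcium channel, and *Trpv4* (2.65 ± 0.33), a cation channel of ECs and other cells, each in log2 fold change. Among the lists the markers of cardiomyocytes and other cells moved as given above.

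In ECs few channel genes were called, with log2 fold changes between -2.35 and 1.21. Of 46 measured genes 2 rose, where 2.08% of all genes were called higher, and 5 fell, where 5.31% were called lower. The median log2 fold change was -0.07, against 0.03 over all genes. The 4 *Gadlor*-KO and 4 WT samples were apart for 3 genes higher (13.6% of all genes) and 6 lower (12.6% of all genes) in *Gadlor*-KO. Of the channel genes, 4.35% were thus called higher and 10.9% lower, each above the share of all genes, on few genes and without a test.

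*Kcna5*, the channel gene with the highest level in ECs, was one of the rises. It had 8.16, 7.89, 8.06 and 7.85 log2 CPM in *Gadlor*-KO ECs against 6.64, 6.93, 7.24 and 7.46 in WT ECs. Every *Gadlor*-KO sample lay above every WT sample. The log2 fold change was 0.92 ± 0.16, or 1.9-fold, with a limma adjusted p of 0.0047. *Kcnc4*, the fast Kv3.4 channel, had 1.28, 1.61, 2.09 and 1.92 log2 CPM in *Gadlor*-KO against 0.57, 0.96, 0.83 and -0.29 in WT ECs (log2 fold change 1.21 ± 0.28, limma adjusted p = 0.0144). Both genes stayed called when each sample was left out in turn.

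Of the falls, *Kcnk7* was the largest. This two-pore-domain subunit, for which no current of its own is known, had -2.58, -1.65, -2.19 and -0.73 log2 CPM in *Gadlor*-KO ECs against 0.71, 0.45, 0.62 and 0.45 in WT ECs. The log2 fold change was -2.35 ± 0.37, a 5.08-fold lower level, with a limma adjusted p of 0.00184. Its transcript lies on chromosome 19 from 5704367 to 5707101 on the plus strand (mm10, GENCODE vM21). The calcium-activated channels that hyperpolarize ECs both fell. *Kcnn4* (the intermediate-conductance channel) had 0.60, 0.53, 0.65 and -0.05 in *Gadlor*-KO against 0.98, 1.02, 1.19 and 1.40 log2 CPM in WT ECs (log2 fold change -0.72 ± 0.19, limma adjusted p = 0.0232). *Kcnn3* (a small-conductance channel) had 0.79, 0.62, 0.02 and 0.40 against 0.93, 1.19, 1.38 and 1.10 (log2 fold change -0.69 ± 0.19, limma adjusted p = 0.0264). The T-type calcium channel genes *Cacna1h* and *Cacna1g* fell too. *Cacna1h* had 3.89, 3.97, 3.70 and 3.60 log2 CPM in *Gadlor*-KO against 4.29, 4.27, 4.67 and 4.35 in WT ECs, a log2 fold change of -0.60 ± 0.11 (adjusted p = 0.00408, limma). *Cacna1g* had 2.58, 3.18, 2.16 and 2.98 against 3.23, 3.29, 3.40 and 3.69, with a limma adjusted p of 0.0488 just under the threshold (log2 fold change -0.68 ± 0.21). *Kcnk7* stayed called when each sample was left out in turn. The other falls depended on single samples. The count of channel genes called lower was 1 without KO-133 and without WT-34, 2 without WT-35, and 3 without WT-32 and without KO-131, and the 3 without KO-131 were *Kcnk7*, *Kcnn4* and *Kcnj2*, which was not among the 5.

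**Figure D4:**
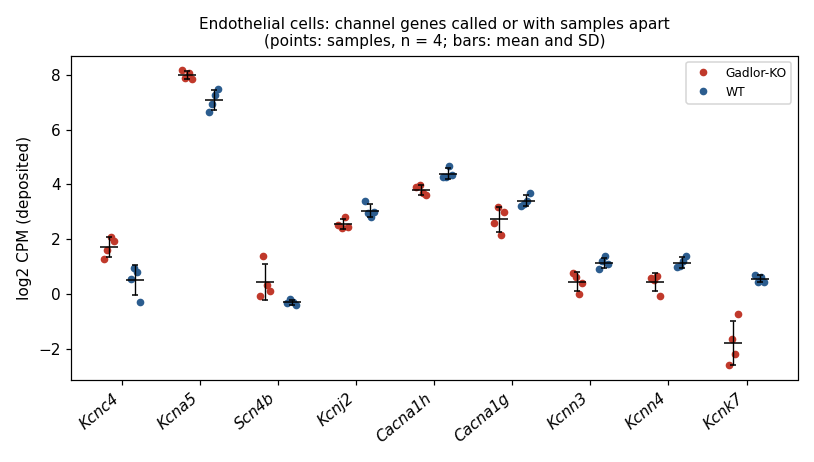
Log2 CPM of 9 channel genes in each EC sample, red for the 4 *Gadlor*-KO samples (left of each pair) and blue for the 4 WT samples (right), with the mean and SD in black. They are the 7 called genes with *Kcnj2* and *Scn4b*, whose samples were apart without a call. *Kcnk7* shows the widest gap, at -2.58 to -0.73 in *Gadlor*-KO and 0.45 to 0.71 in WT ECs.

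Other EC channel genes came close to a call. *Kcnj2*, the inward rectifier by which ECs sense flow and potassium, had 2.53, 2.41, 2.83 and 2.43 log2 CPM in *Gadlor*-KO against 3.41, 2.96, 2.83 and 2.99 in WT ECs, where the nearest samples of both genotypes round to the same value, with an adjusted p of 0.0284 in limma but a log2 fold change of -0.50 ± 0.14, under the fold threshold. *Kcnk6* likewise had an adjusted p of 0.0282 in limma with a log2 fold change of 0.34 ± 0.09. *Scn4b* was apart, with -0.05, 1.40, 0.34 and 0.12 log2 CPM in *Gadlor*-KO against -0.33, -0.18, -0.28 and -0.39 in WT ECs, and not called (adjusted p = 0.0962, limma), KO-108 being far above the others. The cardiac genes *Kcnh2*, *Kcnj11*, *Kcnk3*, *Cacna1c*, *Cacna2d1*, *Cacnb2*, *Kcnq1* and *Hcn2*, present in ECs, had overlapping values and were not called, as was *Cacna1d*. Cardiomyocyte markers did not separate the genotypes in ECs, with a summed 8.94 to 9.54 log2 CPM in *Gadlor*-KO and 8.08 to 10.04 in WT, and 0 of 16 were called, nor did endothelial markers, with 13.09 to 13.23 and 13.07 to 13.22, and 0 of 14 called. After endothelial markers, pericyte and smooth muscle markers had the highest sums, at 11.43 to 11.65 log2 CPM in *Gadlor*-KO and 11.38 to 11.69 in WT ECs. Of these 13 markers 0 were called. Fibroblast markers were at 8.91 to 10.16 in *Gadlor*-KO and 9.56 to 10.45 in WT ECs, with 1 of 12 called lower. Macrophage markers were at 7.85 to 9.27 log2 CPM in *Gadlor*-KO and 9.41 to 9.53 in WT ECs, with 1 of 12 called lower. Of the 2 measured epicardial markers 1 was called higher, with a summed 6.25 to 6.43 log2 CPM in *Gadlor*-KO and 5.45 to 6.07 in WT ECs. Mitochondrial RNA took 8.03% to 20.4% in *Gadlor*-KO and 5.25% to 8.59% in WT ECs, with overlapping values. All 5 erythroid markers were called lower, at 7.94 to 8.15 log2 CPM in *Gadlor*-KO and 8.70 to 9.44 in WT ECs. The part of such cells in the falls of *Kcnn4* or other genes was not tested.

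Among partner genes of ECs, 2 of 15 partner subunits rose, *Fgf12* (0.34 ± 0.54 log2 CPM in *Gadlor*-KO, -2.06 ± 0.87 in WT) and *Cacng1* (0.96 ± 0.44 and -0.31 ± 0.50), both in SD with n = 4 each. Over all genes of the EC table, 2.08% were called higher and 5.31% lower. Of 27 scaffolds and regulators 3 fell. *Gem* had 3.76 ± 0.32 log2 CPM in *Gadlor*-KO and 5.49 ± 0.14 in WT ECs, a log2 fold change of -1.72 ± 0.15 (adjusted p = 8.81e-05, limma). *Rrad* fell as well, with a log2 fold change of -1.67 ± 0.22 (adjusted p = 0.00136, limma). *Gem* and *Rrad* are inhibitors of calcium channels at the membrane, and *Stac3*, which helps to bring these channels there, fell as well (log2 fold change -0.94 ± 0.20). *Gem* thus fell in ECs and rose in CMs, a difference that was not tested, and *Rrad* fell in both. Of 17 transcription factors *Hand2* rose (1.43 ± 0.30 on the log2 scale), and of 29 other channels *Lrrc8a*, the volume-regulated anion channel, rose (0.68 ± 0.09) and *Clcn2* fell (-0.59 ± 0.12).

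In FBs no channel gene was called in either direction with all samples. Of 38 genes 0 rose, where 0.00737% of all genes (1 gene) were called higher, and 0 fell, where 0.0% were called lower. At an unadjusted p under 0.05 in limma there were 6 genes, 2 higher and 4 lower. The 3 *Gadlor*-KO and 3 WT samples were apart for 2 genes higher (12.2% of all genes) and 6 lower (9.09% of all genes) in *Gadlor*-KO. Among these were *Kcna5* on the higher side, and *Cacnb1*, *Cacna1a*, *Kcnd1*, *Kcnn1* and *Scn2a* on the lower. The partner lists held 0 called genes in FBs.

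*Kcna5* had the largest difference in FBs, at 5.78, 5.02 and 4.53 log2 CPM in *Gadlor*-KO against 3.10, -0.05 and 1.90 in WT FBs (log2 fold change 3.46 ± 0.79, limma adjusted p = 0.166). It was thus higher in every *Gadlor*-KO sample than in every WT sample in all 3 cell types, called in ECs and CMs and not in FBs. The endothelial markers, whose cells had the highest *Kcna5* level, were at 10.53 to 11.36 log2 CPM in *Gadlor*-KO and 7.59 to 9.79 in WT FBs, with 0 of 14 called, and their part in the difference was not tested. Epicardial markers were at 3.81 to 5.14 log2 CPM in *Gadlor*-KO and 6.05 to 8.30 in WT FBs, and pericyte and smooth muscle markers at 8.93 to 9.38 and 8.29 to 8.65, without a call in either list. *Kcnd1*, a relative of the transient outward channels, had 1.67, 1.95 and 1.58 log2 CPM in *Gadlor*-KO against 2.23, 2.69 and 2.48 in WT FBs (log2 fold change -0.73 ± 0.21, limma adjusted p = 0.196).

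**Figure D5:**
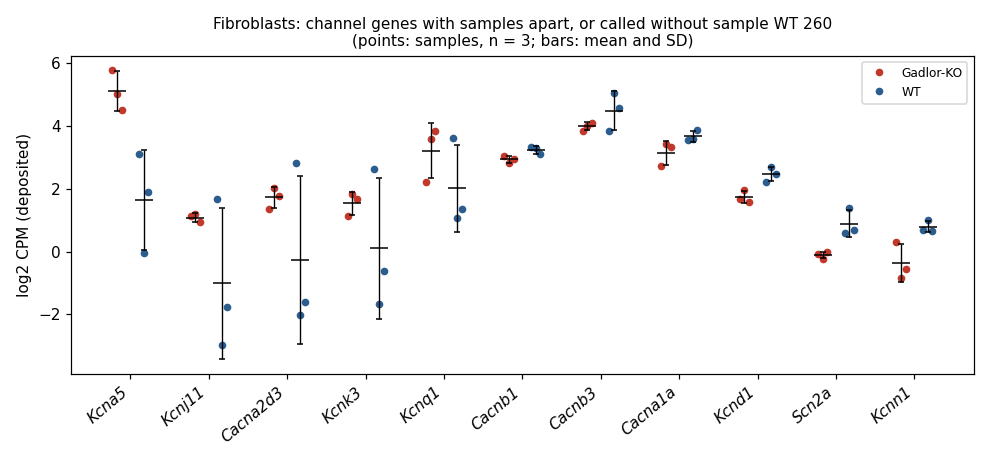
Log2 CPM of 11 channel genes in each FB sample, red for the 3 *Gadlor*-KO samples (left of each pair) and blue for the 3 WT samples (right), with the mean and SD in black. They are genes whose samples were apart and genes called without WT-260. The WT samples of *Kcnj11*, *Cacna2d3* and *Kcnk3* split, with WT-260 above the *Gadlor*-KO samples and the other two WT samples below.

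Sample WT-260 decided the count in FBs. Without it, 6 genes rose, where 6.1% of all genes were called higher, and 1 fell, where 3.3% were called lower. The rises included *Cacna2d3*, *Kcnj11*, *Kcna5*, *Kcnk3* and *Kcnq1*, of which all but *Kcna5* fell in *Gadlor*-KO CMs, and the fall was *Cacnb3*. *Kcnj11* had 1.13, 1.18 and 0.93 log2 CPM in *Gadlor*-KO FBs against 1.69 in WT-260 and -2.97 and -1.77 in the other two WT FBs. *Kcnk3* had 1.13, 1.84 and 1.66 in *Gadlor*-KO against 2.62 in WT-260 and -1.68 and -0.62 in the others. In both genes WT-260 was the highest of all 6 FB samples, as it was in summed cardiomyocyte markers. Those were at 8.07 to 8.87 log2 CPM in *Gadlor*-KO FBs, above the 4.74 and 5.87 of WT-277 and WT-283. Whether these differences come from cardiomyocyte RNA in the FB samples was not tested.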

How the data were processed

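Bulk RNA-seq tables of ECs, FBs and CMs were used, with genotype and cell type from the sample labels. The authors deposited log2 CPM for each transcript and sample, with a small prior count that sets the lowest value of a table. The deposited tables also hold the authors' own comparison (log2 fold change, mean level, likelihood ratio, p-value and FDR), which was not used here. In the methods, the authors trimmed stranded single-end reads of 50 bases with FastqCleaner, aligned them with bowtie2 to mm10, used biomaRt for names and edgeR for the test. The submitters' processing notes name Bowtie2, DESeq2 and mm10. Versions, the counting tool, the annotation release, the use of strand in counting and the filter on low transcripts are not given in the sources used here. No count test was run.

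Where a gene has several transcripts, the one of highest mean level was taken. 0.44%, 0.419% and 0.414% of the rows of the EC, FB and CM tables had no name and were left out. Genotypes were compared within each table with limma 3.58.1 (R 4.3.3, with a trend of the variance on the level and robust moderation from statmod 1.5.0), with Benjamini-Hochberg adjustment over all genes of the table. A call needed an adjusted p under 0.05 and a fold change above 1.5. Fold changes understate differences of genes near the lowest value. Limma was tested on simulated data. Lengths, GC content and overlapping genes came from GENCODE vM21, and levels between genes were divided by transcript length in kilobases. Library sizes were estimated from the steps between low values, 100% of which lay within 0.1 of a whole number of reads, with the step taken from those values themselves. Further steps used numpy 2.4.6, scipy 1.17.1 and pandas 2.3.3 under python 3.11.15. Figures were made in matplotlib 3.10.9.

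The genes and lists were chosen with earlier results of these data known. The text names a set of core cardiac and vascular channel genes, up to 10 called genes per direction and cell type with the smallest adjusted p, the gene with the highest level of each class, up to 3 called partner genes per list and direction, and every gene of a count of 5 or fewer. Further genes were named after their values had been seen. Some genes that the name pattern takes are not reported here by name, and counts of genes include them but for 1. Alternatives concerned the fold threshold, a filter at 1 CPM, log2(CPM + 1), sums over transcripts, limma settings, scaling to nuclear genes or to the median gene, each sample left out, Y-linked expression as a covariate (ECs and FBs) and the replicate number as a block (CMs).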

Additional observations from a re-analysis of the deposited data

Results flagged for a closer look

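Within the 4 samples of a genotype in ECs, 54 sets of values were examined for a sample far from the other 3, and chance alone gives about 1 in 20. *Kcne4* had 2.35 log2 CPM in KO-131, against 3.04 to 3.18 in the other *Gadlor*-KO ECs. *Kcnq1* had 4.58 log2 CPM in KO-131, against 4.02 to 4.10 in the others. *Kcnt1* had 1.38 log2 CPM in WT-35, against 2.30 to 2.48 in the other WT ECs.

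For 2 genes the genotypes were apart in opposite directions in different cell types, and the difference between cell types was not tested. *Cacna1a* had a log2 fold change of 0.59 in CMs and -0.52 in FBs, and *Scn4b* had -2.84 in CMs and 0.75 in ECs, of which only that of *Scn4b* in CMs was called.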

How the results depend on the processing

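No called channel gene turned its sign under the alternatives run in its cell type. The rises of *Kcna5* and *Kcnc4* and the fall of *Kcnk7* in ECs, the rises of *Cacnb3*, *Kcna5*, *Kcnk6* and *Kcnt2* in CMs and 15 of the 24 falls in CMs kept their call under every alternative run there. The count of falls in ECs was 2 with log2(CPM + 1) and 3 with scaling to nuclear genes, and it ranged from 1 to 5 with a sample left out. Leaving out a sample in FBs gave 0 to 6 rises, 0 to 1 falls and 0 to 6 called partner genes, the highest of each without WT-260. Called partner genes in CMs, 45 with all samples, ranged from 29 to 50, with 29 without *Gadlor*-KO 2, and those in ECs numbered 19 with no fold threshold. Scaling to nuclear genes gave a median log2 fold change over all genes of 0.89 in CMs, against 0.15 as deposited, and of 0.15 in FBs, against 0.01, and in CMs it left 18 falls and 7 rises. The replicate number is shared by only 2 pairs of CM samples, whose deviations correlated at 0.05 and 0.08, so it gives no pairing. The fit with it as a replicate block used only *Gadlor*-KO 1 and 2 and WT 1 and 2. In that fit 6 channel genes rose and 30 fell, but the block and the set of samples changed together. The shares of all genes called with nuclear scaling and with the block are not given here, so these counts lack a background. The causes were not tested. CMs had the smallest libraries and 3 samples per genotype, which limits what can be called there.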
